A study of Homo sapiens with 6 samples.

Results

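The replication-dependent histone genes supply the histones that package newly made DNA. They were taken here as every gene of the authors' deposited table whose older symbol begins with HIST1H, HIST2H, HIST3H or HIST4H. The rule found 73 of 26364 genes, of which 59 had a mean read count above 0 and 19 had an adjusted p. Of the 73, 3 are annotated as pseudogenes (HIST2H2BA, HIST2H2BC and HIST1H2APS1), and of these HIST2H2BC alone had counts. The table compares REH cells, a human B-cell precursor acute lymphoblastic leukaemia line, carrying a lentiviral scramble hairpin (3 libraries) with REH cells carrying a lentiviral hairpin against STAT3 (shSTAT3, 3 libraries). Both groups were selected in puromycin for 3 days and cleared of dead cells before total RNA was extracted, and the replicates came from independent experiments. The labels describe 1 shSTAT3 hairpin group, and they do not say whether more than 1 hairpin sequence was used.

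Histone cluster genes are transcribed mainly in S phase, when the cell copies its DNA. Their mRNAs are unusual because most carry no poly(A) tail and end instead just after a short stem-loop, which the stem-loop binding protein SLBP holds through processing, translation and decay. The labels name TruSeq RNA v2 libraries, a kit that as usually run captures poly(A) tails, and do not describe the capture step. Counts from such libraries do not measure the bulk of histone mRNA. Histones H2A, H2B, H3 and H4 form the core of a nucleosome, and H1 binds the linker DNA between nucleosomes.

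The stem-loop was searched for in the GENCODE 29 transcripts, on the RNA strand, as a 16-base pattern of the histone stem-loop that leaves 6 positions free. It was found in 33 of the 73 histone cluster genes and in 0.376% of the other genes of the table that have a GENCODE transcript. Another 34 histone cluster genes have transcript models that stop at the stop codon, so their 3′ ends could not be searched. The 33 genes share 6 versions of the 16-base stem-loop. They are shown here because this element decides how a histone mRNA ends, with the stem-loop in capitals and 5 flanking bases in lower case on each side.
HIST2H2BE: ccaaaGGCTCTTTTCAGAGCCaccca
HIST1H2AC: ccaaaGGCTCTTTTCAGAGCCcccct
HIST1H2AG: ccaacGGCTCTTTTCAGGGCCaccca
HIST1H2BC: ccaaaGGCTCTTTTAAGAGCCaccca
HIST1H3E: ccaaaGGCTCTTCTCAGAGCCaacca
HIST4H4: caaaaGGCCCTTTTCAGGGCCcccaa
HIST2H4A: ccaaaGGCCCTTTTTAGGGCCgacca

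The version in HIST2H2BE and HIST1H2AC was the most common, in 17 of the 33 genes. The version of HIST4H4 and that of HIST2H4A were found in 5 and 3 genes, all of them H4 genes, and HIST1H2BC shared its version with 4 others, 5 in all.

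By the authors' deposited table STAT3 stood at 29.8% of its scramble level (log2 fold change −1.75, DESeq2 adjusted p = 7.78e-74). The table does not name its numerator, so a negative value was read as lower in shSTAT3 from STAT3 alone. Of the 10 B-cell precursor markers, 9 were tested, with the pre-B-cell receptor gene VPREB1 listed at 0, and 4 of the 12 markers of other cell types were listed at 0 while the myeloid enzyme gene MPO had a mean of 2329.7 normalized counts over all libraries and a log2 fold change of −0.24 (adjusted p = 0.330). CSF1R and COL1A1, markers of myeloid and stromal cells with means of 88.9 and 51.3 normalized counts, fell by 0.81 and 0.75 on the log2 scale, per the authors' deposited table. CD14, another myeloid marker, had a mean of 6.66, no adjusted p and a log2 fold change of 0.67 (95% interval 0.03 to 1.30, unadjusted p = 0.0388), and LYZ was at −0.43 with no p, per the authors' deposited table. Of the 9 tested B-cell precursor markers 2 rose, CD79A by 0.63 and PAX5 by 0.32 on the log2 scale, and 5 fell, by 0.21 to 0.29, per the authors' deposited table. The part of these markers in the results was not tested. Size factors recovered from the lowest means lay between 0.935 and 1.13. One of the 6 libraries held 23.8% of reads of genes with a mean under 6 but 15.4% of such reads of histone cluster genes. This library was not matched to a sample or assigned to a group.

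Histone cluster genes were faint, and 4 of the 19 tested ones were higher in shSTAT3 cells while none was lower. The 4 were HIST2H2BE, HIST1H2AC, HIST4H4 and HIST1H1D, with log2 fold changes of 0.98, 0.99, 0.84 and 0.77 per the authors' deposited table. Of all 12061 tested genes, 44.5% were called at the authors' adjusted p under 0.05, 21.3% higher and 23.2% lower, so the share of histone cluster genes called higher, 21.1%, lies near that of all genes and is not a result about them. With an unadjusted DESeq2 p under 0.05, 6 of the 59 genes with a p were higher and 0 lower, against 17.0% higher and 18.2% lower, 35.2% together, of all genes with a p. None of the 40 histone cluster genes with a p and no adjusted p was under 0.05, against 2.59% of all such genes. No other tool could be run, because the table holds no value per library.

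The background is lower for faint genes. Among tested genes with a mean under 20, 15.0% were called, 8.64% higher and 6.33% lower. Among those with a mean from 20 to 200, 33.8% were called, 16.2% higher and 17.6% lower. These limits of the mean were chosen after the values were seen. All 19 tested histone cluster genes lay below the median mean of tested genes, 411 normalized counts. Of the 11 with a mean under 20, 2 were called, and of the 8 with a mean from 20 to 200, 2 were called. At the standard error of about 0.33 of the 11 faint genes, the smallest estimated log2 fold change that would be called is about 0.76. Estimates are pulled toward 0 at low means, so this is a cutoff on the estimate and not a limit for the true change.

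Fold changes of histone cluster genes lay mostly above 0. The fold change was positive for 18 of the 19 tested genes (94.7%) and for 49 of the 59 with a mean above 0 (83.1%), against 50.3% of all tested genes and 50.6% of all genes with a fold change. Among tested genes of a mean under 20 the share was 53.9%, and from 20 to 200 it was 49.7%. The median log2 fold change was 0.37 over the 19 tested histone cluster genes and 0.0027 over all tested genes. These counts are descriptions without a test. Histone genes are near copies of each other and are not independent, and no tested gene of the table had a mean below 10.0.

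**Figure D1:**
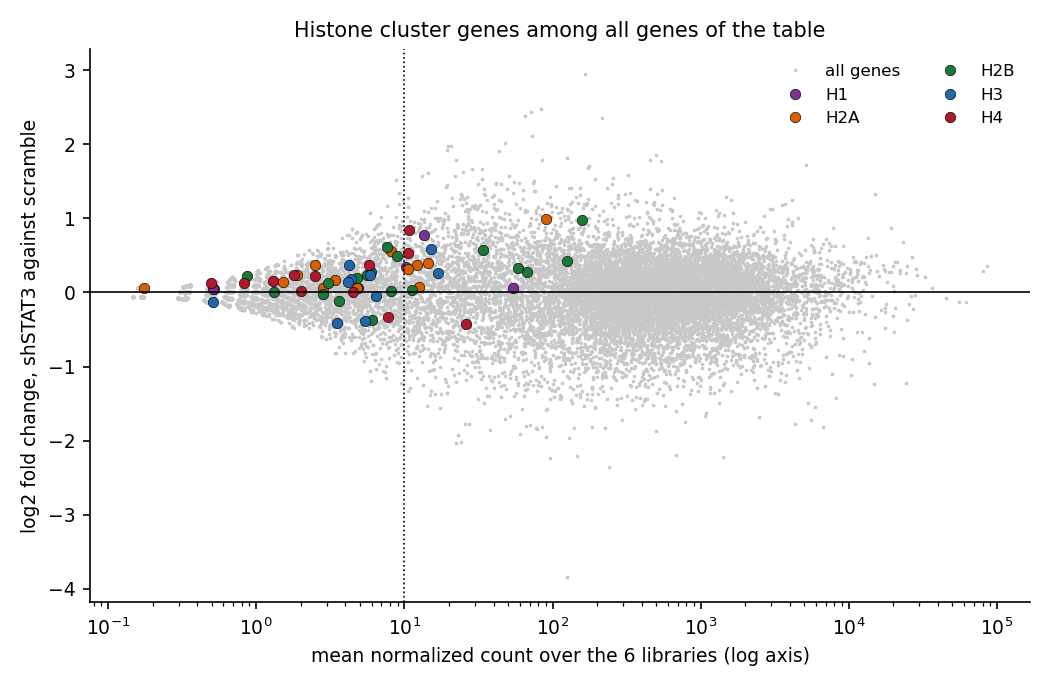
Log2 fold change, shSTAT3 against scramble, on the vertical axis against the mean normalized count over the 6 libraries on a log axis, from the authors' deposited table. Small grey points are all genes, large points the 59 histone cluster genes coloured by class, and the dotted line marks a mean of 10. Histone cluster genes have means of at most 158 and lie mostly above 0.

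The summed mean of all histone cluster genes was 904 normalized counts per library, or 0.00787% of the 11485068 counts in the table. The 3 genes with the most counts, HIST2H2BE, HIST1H2BK and HIST1H2AC, made up 41.4% of that sum. H2B genes gave 507 of the 904 counts, H2A genes 166, the linker H1 genes 84.2, H4 genes 74.5 and H3 genes 72.4. These sums are not per length, so they do not rank the classes by mRNA abundance. In bulk RNA, a change in the share of cells of a kind and a change in RNA per cell cannot be told apart.

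Linker histone genes were represented by 6 members, all above 0 and 3 of them tested. HIST1H1D, which encodes H1.3, rose 1.70-fold with a mean of 13.6 normalized counts and an adjusted p of 0.0497 per the authors' deposited table. That call was lost when p-values were adjusted over every gene with a p (adjusted p = 0.0719). HIST1H1C, which encodes H1.2, had a higher mean than HIST1H1D, 54.5 normalized counts, and a log2 fold change of 0.06 (95% interval −0.42 to 0.55) from the authors' deposited table. HIST1H1E, the gene of H1.4, was at 0.34 (adjusted p = 0.436). HIST1H1B, HIST1H1A and the testis gene HIST1H1T had means under 5 and log2 fold changes of 0.05 to 0.06. Of the tested H1 genes 1 was called and 2 were not, and the difference between them was not tested.

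Among 18 H2A genes 13 had counts and 5 were tested. HIST1H2AC rose 1.99-fold, with a mean of 90.8 normalized counts (log2 fold change 0.99, 95% interval 0.54 to 1.44, adjusted p = 8.93e-05 per the authors' deposited table). It lies on chromosome 6 from 26124145 to 26139116 on the plus strand (GRCh38, GENCODE 29), where 1 of its 3 transcript models runs 1187 bases past the stop codon. HIST2H2AC, HIST1H2AM, HIST1H2AE and HIST1H2AG had means of 10.5 to 14.5 and log2 fold changes of 0.40, 0.37, 0.31 and 0.07 per the authors' deposited table, none of them called. Of the H2A genes without an adjusted p, HIST1H2AI had the largest fold change, 0.56 with an unadjusted p of 0.0944. All 13 H2A genes with counts had a fold change above 0.

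H2B genes carried most of the counts, with 17 of 20 above 0 and 6 tested. HIST2H2BE, the gene of an H2B protein, had the highest mean of all histone cluster genes, 158 normalized counts, and rose 1.97-fold (log2 fold change 0.98, 95% interval 0.64 to 1.32, adjusted p = 1.40e-07 per the authors' deposited table). It lies on chromosome 1 from 149884459 to 149886652 (GRCh38, minus strand), and its single GENCODE 29 transcript runs 1801 bases past the stop codon, well beyond the stem-loop. HIST1H2BK, second in mean at 125, was at 0.43 with an adjusted p of 0.0580 per the authors' deposited table. HIST1H2BG was at 0.57 with an adjusted p of 0.0985, and neither passed the threshold. HIST1H2BH, HIST1H2BD and HIST1H2BN were at 0.33, 0.27 and 0.03 per the authors' deposited table (adjusted p = 0.282, 0.433 and 0.950). The 3 H2B genes with a fold change below 0, HIST1H2BC, HIST1H2BI and HIST1H2BM, had no adjusted p.

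H3 genes had few counts, with 11 of 14 above 0 and only HIST1H3H and HIST1H3E tested. Their log2 fold changes were 0.59 and 0.26 per the authors' deposited table (adjusted p = 0.137 and 0.548). The other 9 ranged from −0.41 in HIST1H3F to 0.37 in HIST1H3C, and the smallest unadjusted p among them was 0.163.

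All H4 genes of the clusters except HIST1H4G encode the same protein. Of the 12 H4 genes with counts 9 had a fold change above 0 and 3 below 0, and none of those below 0 was called. HIST4H4, which stands alone on chromosome 12 from 14767999 to 14771131 (GRCh38, minus strand), rose 1.79-fold with a mean of 10.8 normalized counts (95% interval of the log2 fold change 0.19 to 1.5, adjusted p = 0.0287 per the authors' deposited table). HIST1H4H was at 0.53 and HIST1H4C at −0.42 per the authors' deposited table (adjusted p = 0.193 and 0.278). HIST1H4C, with a mean of 26.2, was the single tested histone cluster gene with a fold change below 0. The 9 H4 genes with a p and no adjusted p ranged from −0.33 in HIST1H4A to 0.37 in HIST1H4E.

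**Figure D2:**
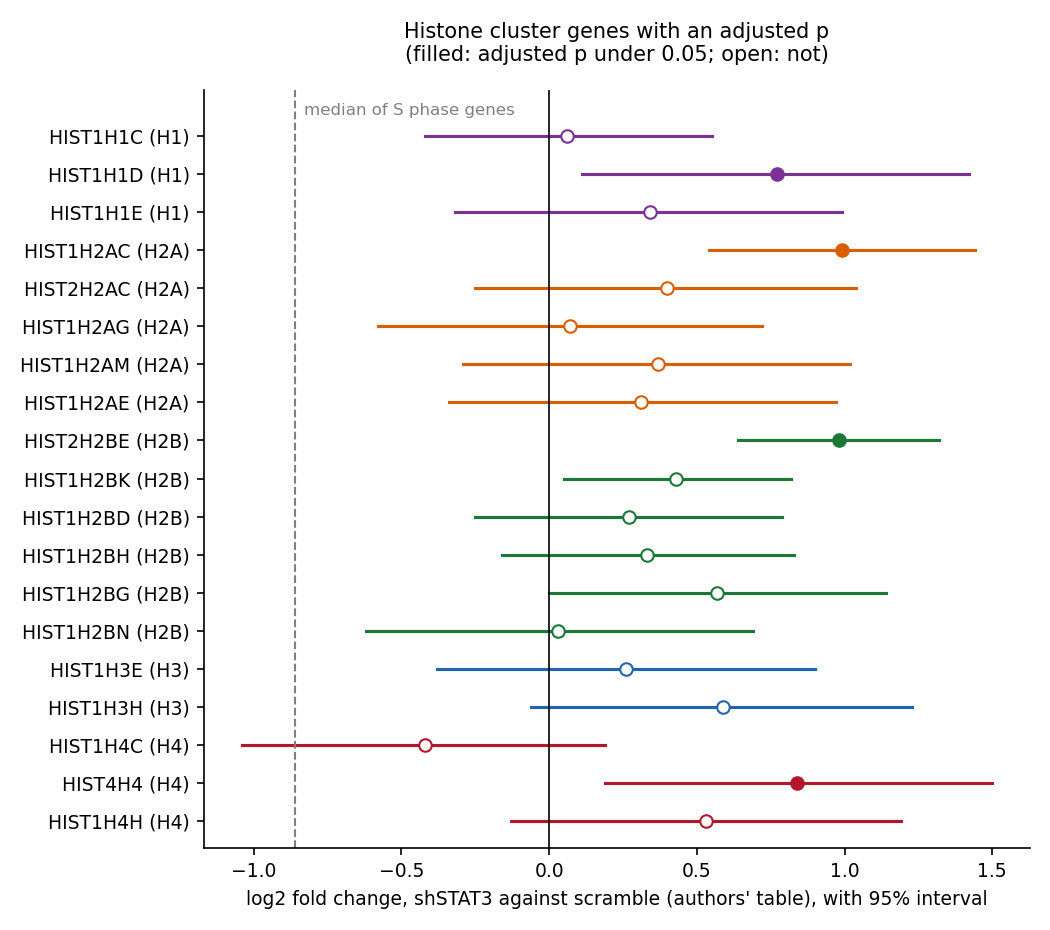
Log2 fold change, shSTAT3 against scramble, of the 19 tested histone cluster genes from the authors' deposited table, with a 95% interval computed from the fold change and its p. Genes are grouped by class and ordered by mean within it, filled points passed an adjusted p of 0.05, and the dashed line is the median of S phase genes, −0.86. The 4 filled points lie above 0, and the interval of HIST1H4C alone reaches the dashed line. Intervals are of fold changes that are pulled toward 0 at low means.

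By cluster, 52 of 56 HIST1 genes on chromosome 6 had counts and 2 of 16 tested ones were called. The share called among all tested genes was 44.5%. Of the 13 HIST2 genes on chromosome 1, 7 were listed at 0, and so were all 3 HIST3 genes. The list of identical or near-identical copies on chromosome 1 (HIST2H2AA3, HIST2H2AA4, HIST2H3A, HIST2H3C, HIST2H3D, HIST2H4A and HIST2H4B) had 6 of 7 genes listed at 0. How the authors treated reads that map to several copies is not given in the sources used here, so these zeros cannot be read as absence of RNA, and counts of the remaining near-copies are uncertain. Outside the clusters, H3F3A, a gene of the variant H3.3 that most cells use, was also listed at 0 per the authors' deposited table.

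A polyadenylated histone transcript usually extends past the stem-loop, so genes were split by annotation. The count of 3′ ends, the octamer and the gene pairs below are descriptions made with the values known. In 27 of the 73 genes GENCODE 29 has a spliced transcript or one that runs more than 200 bases past the stop codon, and 24 of these 27 held a stem-loop match in a transcript. Of 11 tested genes with such a transcript 3 were called, all higher (HIST2H2BE, HIST1H2AC and HIST4H4), with a median log2 fold change of 0.53. Of 8 tested genes without one 1 was called, HIST1H1D, with a median of 0.35. Among all tested genes 21.3% were called higher, 8.64% at a mean under 20 and 16.2% at a mean from 20 to 200. These counts are small, and the difference between the groups was not tested. The median mean was 10.7 normalized counts for genes with a long or spliced transcript and 3.64 for those without, counting genes with a mean above 0. The split depends on the annotation: with a RefSeq gene span of over 1000 bases in its place, 1 of 4 and 3 of 15 tested genes were called. The called genes HIST1H2AC and HIST4H4, with RefSeq spans of 519 and 412 bases, moved to the short side, as did other tested genes that were not called. HIST1H2BK, which was not called, moved the other way. Its RefSeq span is 8566 bases while its GENCODE model ends at the stop codon.

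Most H2A and H2B genes lie in pairs that are transcribed away from each other from a shared start region. By RefSeq (GRCh38.p14) there were 13 such H2A and H2B pairs, with 193 to 287 bases between the starts. The octamer ATTTGCAT, which OCT factors bind in H2B promoters, was searched for on both strands from 250 bases before to 50 after each gene's start. It was found in 14 of 18 H2B promoters (77.8%), 11 of 16 H2A promoters (68.8%), 1 of 12 H3 promoters and none of the 6 H1 and 13 H4 promoters, against 1.77% of all 35116 RefSeq promoters. A gene pair can share a single octamer, so the H2A count includes the partner's element. The H3 promoter with the octamer is that of HIST1H3D, whose RefSeq start, 26199293, is also that of HIST1H2AD. It is therefore the element of HIST1H2AD counted again. The letters CCAAT, on either strand, were found in every H1, H2A, H2B and H3 promoter searched and in 3 of 13 H4 promoters, against 34.6% of all promoters.

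The octamers of the called pairs and of HIST1H2BK, second in mean, are shown with their surroundings, the octamer in capitals, each on the coding strand of the named gene.
HIST2H2BE: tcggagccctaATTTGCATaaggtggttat
HIST2H2AC: ataaccaccttATGCAAATtagggctccga
HIST1H2BC: tttcatacctcATTTGCATagctctgccca
HIST1H2AC: tgggcagagctATGCAAATgaggtatgaaa
HIST1H2BK: ctcttcaccttATTTGCATgagaggtccta

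The octamer lies 46 bases before the start of HIST2H2BE and 197 before that of HIST2H2AC. It lies 123 bases before the start of HIST1H2BC and 130 before that of HIST1H2AC, near the middle of the shared region. Tested genes with the octamer were called in 2 of 9 cases and tested genes with a promoter that lacks these letters also in 2 of 9. Among all tested genes 44.5% were called, 21.3% higher and 23.2% lower.

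Of the 10 H2A and H2B pairs in which both genes had counts, 8 had 2 positive fold changes, 2 had 1 called gene and none had 2. HIST1H2AC was higher at 0.99, while its partner HIST1H2BC, 245 bases away, was at −0.37 with a mean of 6.03 per the authors' deposited table. The 95% intervals of the 2 genes, 0.54 to 1.44 and −1.01 to 0.27, did not overlap, and their difference was not tested. HIST2H2BE was higher at 0.98 and its partner HIST2H2AC at 0.40 with an adjusted p of 0.340 per the authors' deposited table. Their intervals, 0.64 to 1.32 and −0.25 to 1.04, overlapped. All these intervals are of values pulled toward 0 at low means, and they can narrow as reads vanish. HIST1H2AD, with a mean of 0.176, had an interval of −0.12 to 0.24. Neither overlap nor its absence can thus decide whether the genes of a pair differ. HIST1H2BG and HIST1H2AE were at 0.57 and 0.31, and HIST1H2BK and HIST1H2AH at 0.43 and 0.17.

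**Figure D3:**
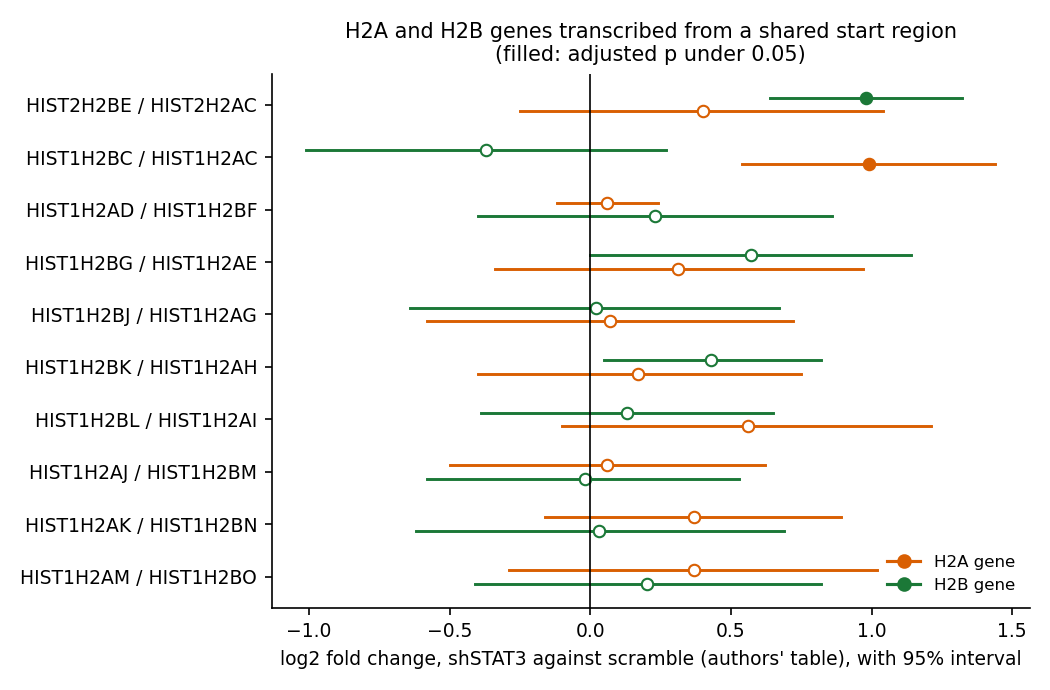
Log2 fold change, shSTAT3 against scramble, with a 95% interval, for the 10 H2A and H2B gene pairs that share a start region and have counts for both genes, from the authors' deposited table. Orange is the H2A gene, green the H2B gene, and filled points passed an adjusted p of 0.05. In each of the top 2 pairs 1 gene is filled and its partner open. Intervals are of values pulled toward 0 at low means, so their widths do not rank the genes by precision.

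SLBP, the protein that binds the stem-loop, acts on these mRNAs throughout their life. Its gene SLBP, counted here and among S phase genes, fell to 62.7% of scramble (log2 fold change −0.67, 95% interval −0.83 to −0.51, adjusted p = 6.42e-15 per the authors' deposited table). In the 3′ end processing list 8 of 21 tested genes fell (38.1%) and 2 rose (9.52%), with a median of −0.12. Of all tested genes 23.2% were lower and 21.3% higher. The share called in either direction, 47.6%, lies near the 44.5% of all tested genes, while the share lower is larger and the share higher smaller. The cleavage factor genes CPSF3, which encodes the endonuclease, and CPSF2 fell by 0.63 and 0.46 on the log2 scale per the authors' deposited table, and CPSF1 rose by 0.33. FIP1L1, NCBP1 and WDR33 also fell, by 0.28, 0.27 and 0.21 on the log2 scale, and MBLAC1, a histone pre-mRNA nuclease with a mean of 34.8, rose by 0.78 (adjusted p = 0.00559, 0.00214, 0.0213 and 0.0183 per the authors' deposited table). LSM11 and LSM10, which mark the U7 snRNP and are outside the rule for named genes, were at −0.34 and 0.25 per the authors' deposited table (adjusted p = 0.0256 and 0.151).

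Among 14 regulators of histone gene transcription 8 fell and 3 rose (median of the log2 fold changes −0.39), 57.1% lower and 21.4% higher against 23.2% and 21.3% of all tested genes. NPAT, the coactivator that cyclin E and CDK2 switch on at the histone clusters, did not pass at −0.17 per the authors' deposited table (95% interval −0.38 to 0.05, adjusted p = 0.214). CASP8AP2, which encodes the histone locus body protein FLASH, fell to 62.5% of scramble (adjusted p = 8.99e-10 per the authors' deposited table). CDK2 and the cyclin genes CCNE1, CCNE2 and CCNA2 fell to 59.3%, 66.7%, 47.8% and 47.8% per the authors' deposited table. E2F1 and CDC25A, both drivers of S phase entry, fell to 48.5% and 69.2%. CRAMP1L rose by 0.31 on the log2 scale, and HINFP, an H4 gene activator, which is outside the rule for named genes, by 0.38 per the authors' deposited table (adjusted p = 6.20e-04 and 0.00583). POU2F1, the octamer-binding factor OCT1, also outside that rule, was at 0.06 (adjusted p = 0.839).

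In the list of histone mRNA translation and decay 3 of 16 tested genes fell and 2 rose, with a median of −0.09. The share called, 31.2%, lies below the 44.5% of all tested genes. ERI1, the exonuclease that trims the stem-loop end, and LSM1, a decay factor, fell to 77.8% and 51.8% of scramble per the authors' deposited table (adjusted p = 0.00589 and 1.48e-11). The RNA surveillance genes SMG1 and UPF1 rose by 0.63 and 0.29 on the log2 scale per the authors' deposited table, and EXOSC10, an exosome nuclease gene, fell by 0.24.

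Of 25 tested genes of histone chaperones and carriers 19 fell and 1 rose (median of the log2 fold changes −0.56), 76.0% lower against 23.2% of all tested genes. CHAF1B, a subunit of the assembly factor CAF-1, fell to 45.7% of scramble, ASF1B, an H3 and H4 chaperone, to 54.6% and SUPT16H, of the FACT complex, to 48.6% per the authors' deposited table. UBN1, MCM2, NAP1L1, SET and MMS22L fell to 42.1%, 56.6%, 51.9%, 55.7% and 50.1% per the authors' deposited table. The exception that rose, IPO4, a histone importin named after its value was seen, was at 0.57. Of 9 tested genes of replication-independent variants 6 fell (66.7%) and 3 rose (33.3%), against 23.2% and 21.3% of all tested genes. Among those that fell were H2AFZ at 65.9%, CENPA at 49.5% and H2AFX at 72.6% of scramble per the authors' deposited table. H1F0, H2AFJ and H3F3B rose by 0.59, 0.57 and 0.20 on the log2 scale.

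All 21 tested S phase genes fell, with log2 fold changes from −1.51 to −0.54 and a median of −0.86 (SLBP included). PRIM1, MCM6 and CDC6 fell to 35.0%, 44.1% and 43.5% of scramble per the authors' deposited table. For 18 of the 19 tested histone cluster genes the 95% interval lay wholly above −0.86, HIST1H4C being the exception. This sets each interval against a fixed value, and the difference between the lists was not tested. Fold changes are pulled toward 0 at low means, and so are these intervals. Of the 19 genes 11 have means under 20, while the S phase genes have means of 229.9 to 4823. The part of this pull in the distance from −0.86 was not tested. Whether polyadenylated and other histone transcripts moved alike was not tested.

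**Figure D4:**
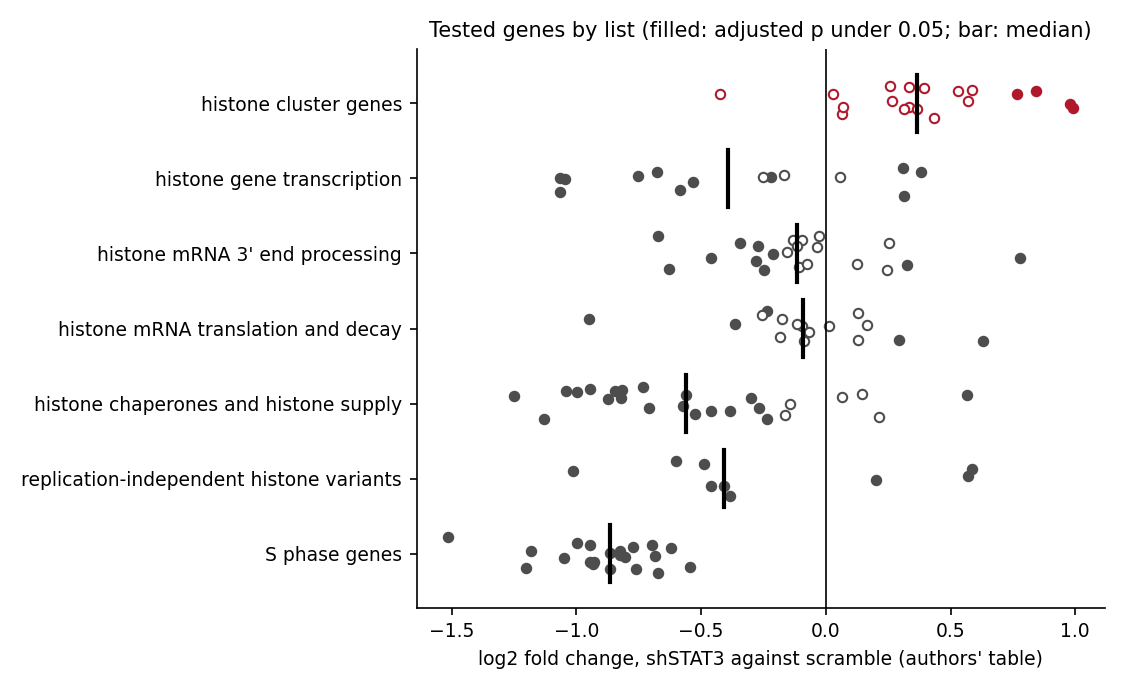
Log2 fold changes, shSTAT3 against scramble, of the tested genes of each list from the authors' deposited table. Each point is a gene, filled where its adjusted p was under 0.05, bars are medians, and the vertical scatter within a row has no meaning. Histone cluster genes (top) have a median of 0.37, and S phase genes (bottom) lie wholly below 0, with a median of −0.86.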

How the data were processed

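RNA of 6 REH cultures was sequenced, 3 per group, from TruSeq RNA v2 libraries, per the labels' protocols. Tools and build, from the submitters' processing notes, were DESeq2, featureCounts, Bowtie2, Picard, Trimmomatic, bcl2fastq 2.19 and hg38. Not given in the sources used here are the annotation, the strand setting, the treatment of multiply mapped reads and the model formula. The authors' deposited table gives, per the file headers, for each gene a p-value, its adjusted p-value, the log2 fold change and a mean normalized count (a signal averaged over the 6 libraries), with no value per library. Fold changes are pulled toward 0 at low means.

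Genes were called at the authors' adjusted p under 0.05. Recomputing it by Benjamini-Hochberg over 12061 genes gave the authors' adjusted p-values within 2.87e-07. Standard errors were derived from each fold change and its p by the normal distribution, and 95% intervals from them. It is an error of shrunken values. Reads per library of genes with a mean under 6 were recovered from the 6 step sizes of the means (33 of 33 histone genes had 1 solution within 8e-09). Positions and transcripts are from GENCODE 29 (73 of 73 symbols matched), and promoters from RefSeq (65 of 73). Named genes were every tested histone cluster gene, up to 8 called genes of each list with the smallest adjusted p, SLBP, NPAT, CASP8AP2, ERI1 and STAT3. The members and lists were chosen with earlier results of these data known. Alternatives were other thresholds, filters and annotations. Functions were tested on simulated data. Python 3.11.15, pandas 2.3.3, scipy 1.17.1 and matplotlib 3.10.9 were used.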

Additional observations from a re-analysis of the deposited data

How the results depend on the processing

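No paired analysis was possible because the deposited table holds no value per library, and for the same reason leaving out replicates, edgeR and other normalizations could not be run. None of the 19 tested histone cluster genes was called lower under any threshold, filter or annotation tried, and the 4 called higher became 2 at an adjusted p under 0.01, at a mean of at least 50 (6 genes tested) and, chosen after seeing the data, without histone genes of a mean under 20 (8 tested). The 4 became 6 at an adjusted p under 0.10 and 3 with p-values adjusted over every gene with a p. HIST2H2BE and HIST1H2AC were called in all of these. By class, the 1 H1 gene called became 0 at 0.01, with p-values adjusted over every gene with a p and at a mean of at least 50, the 1 H4 gene became 0 at 0.01, and the 1 H2B gene became 3 at 0.10. Genes with a short annotated end went from 1 called to 0 at 0.01, to 0 adjusted over every gene with a p, to 0 at a mean of at least 50, to 2 at 0.10 and, by RefSeq span (chosen after seeing the data), to 3, while those with a long or spliced transcript went from 3 to 1 by RefSeq span. In the 3′ end processing list, genes called higher went from 2 to 1 at 0.01 and at a mean of at least 50, and those called lower from 8 to 5 at 0.01. Chaperones called higher went from 1 to 2 at 0.10. The counts of the transcription, decay, variant and S phase lists stayed within 1.5 times. Depth limits the 40 histone cluster genes with a p and no adjusted p, of which none had an unadjusted p under 0.05.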

Other observations

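The faintest histone cluster genes can be followed as whole reads. The libraries carry no label, were not assigned to a group and enter no comparison. The 33 genes with a mean under 6 held 591 reads in all, with a median of 17.0 reads per gene over the 6 libraries. Reads were spread over the libraries as 91, 126, 81, 85, 105 and 103, in the order of falling size factor (1.13, 1.04, 1.0, 0.976, 0.945 and 0.935). The H3 gene HIST1H3B had 6, 12, 6, 2, 6 and 4 reads in that order, and the H3 gene HIST1H3G, at a log2 fold change of −0.39 per the authors' deposited table, had 8, 2, 6, 9, 3 and 5. HIST1H2BE had 5 reads, of which 4 lay in the library with the size factor 0.945. HIST1H2AD, whose partner HIST1H2BF had 34 reads, had 1 read in all 6 libraries together.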
